A study of Mus musculus with 6 samples.

Results

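The variable (V) segments of the immunoglobulin heavy chain and of the lambda light chain were examined in RNA sequencing libraries of memory B cells. They were chosen by name, as every symbol of the count table beginning with Ighv or Iglv, which gave 114 heavy and 3 lambda segments, 117 of the 35186 symbols in all. The cells were sorted from the spleen of C57BL/6J mice as NP-specific memory B cells, NP being a small hapten used as a model antigen, with about 1000 cells per library. One group was wild type (libraries WT1, WT2 and WT3). The other was labelled Nix-/-Bnip3-/- (libraries DKO1, DKO2 and DKO3), named for the loss of Bnip3l (also called Nix) and Bnip3, which encode receptors for the removal of mitochondria by autophagy. Age, immunization, the exons deleted and the number of animals are not stated in the sources used here, and if libraries share an animal, p-values measure only a spread between libraries that may be technical.

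A heavy-chain gene is assembled in each B cell by joining 1 of many V segments to a D and a J segment, and a light-chain gene by joining a V to a J segment. Transcription from the V promoter of the joined gene then gives a messenger RNA that starts with that V segment and ends with a constant region, and a cell that has made its receptor transcribes chiefly the segments it has joined. The primary response of C57BL/6 mice to NP is the textbook case of a restricted repertoire: many responding cells join Ighv1-72, long known as VH186.2, and pair it with a lambda light chain, most often one made with Iglv1, although kappa chains serve most other responses in the mouse. Antigen-selected cells also mutate these segments, most famously at a tryptophan codon in the first hypervariable loop of Ighv1-72, which gene counts cannot show.

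The segments known for this response have close relatives in the genome, which bears on how well a read can be placed. Shown first is the V exon of Ighv1-72 (chr12:115757989-115758288, minus strand, mm10) with that of the segment sharing the most sequence with it, Ighv1-62-3 (chr12:115461004-115461303, minus strand). Both are coding exons in GENCODE mouse release 21, of which the first 300 of 305 bases are printed 5′ to 3′, without leader exon or untranslated bases. Capitals mark the positions at which they differ, 3 over the whole exon (99.0% identity).
Ighv1-72: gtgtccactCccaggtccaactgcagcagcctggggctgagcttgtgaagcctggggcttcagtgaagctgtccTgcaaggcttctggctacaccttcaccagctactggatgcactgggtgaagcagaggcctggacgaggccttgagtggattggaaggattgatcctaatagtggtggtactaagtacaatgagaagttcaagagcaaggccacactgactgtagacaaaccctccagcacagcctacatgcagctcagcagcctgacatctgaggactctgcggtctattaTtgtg
Ighv1-62-3: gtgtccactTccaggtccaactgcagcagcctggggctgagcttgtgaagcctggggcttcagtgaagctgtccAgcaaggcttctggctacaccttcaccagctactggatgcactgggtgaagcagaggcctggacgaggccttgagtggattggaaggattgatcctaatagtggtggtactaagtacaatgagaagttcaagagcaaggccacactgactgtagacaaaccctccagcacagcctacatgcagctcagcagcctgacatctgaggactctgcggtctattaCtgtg
The longest stretch without a difference between them ran over 220 bases. The same stretch of the V exons of Iglv1 (chr16:19085022-19085321, minus strand) and Iglv2 (chr16:19260406-19260705, minus strand) has capitals at 9 of 305 positions (97.0% identity).
Iglv1: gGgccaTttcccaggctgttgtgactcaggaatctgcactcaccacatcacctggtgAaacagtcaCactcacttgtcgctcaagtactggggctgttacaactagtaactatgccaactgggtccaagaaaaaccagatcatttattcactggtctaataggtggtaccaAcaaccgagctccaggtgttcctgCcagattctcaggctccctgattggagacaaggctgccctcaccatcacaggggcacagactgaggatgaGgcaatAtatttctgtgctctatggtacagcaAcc
Iglv2: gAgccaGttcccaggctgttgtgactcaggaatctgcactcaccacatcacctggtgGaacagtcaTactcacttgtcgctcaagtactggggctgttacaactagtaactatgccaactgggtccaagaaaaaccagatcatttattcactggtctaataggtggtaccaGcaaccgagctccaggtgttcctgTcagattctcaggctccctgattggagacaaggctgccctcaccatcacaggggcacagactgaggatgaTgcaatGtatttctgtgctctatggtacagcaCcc
Of the 347 windows of 50 bases in the Ighv1-72 transcript, 26 (7.49%) occurred in no other annotated gene, and 237 also occurred in Ighv1-62-3. The median heavy segment had 77.9% of its windows to itself, and 1 of the other 113 segments had a smaller share than Ighv1-72. For Iglv1 the share was 77.8%, for Iglv2 76.0%, and Iglv3 shared no window with another gene. With windows of 75 bases the share rose to 28.3% for Ighv1-72. How long the reads were, and what was done with reads that match several places, is not given in the sources used here.

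The libraries were shallow and differed in kind between the groups. Total counts ran from 312908 to 517057 per library. Of the 35186 symbols, 17831 to 18486 had a count in the WT libraries and 23580 to 24787 in the libraries labelled DKO. Counts of the tested genes were ranked alike in pairs of DKO libraries (Spearman correlation across genes, 0.47 to 0.50) far more than in pairs of WT libraries (0.15 to 0.16). The targeted genes did not settle the labels: Bnip3l counts were 1, 8 and 0 for WT1 to WT3 against 10, 16 and 41 for DKO1 to DKO3, and Bnip3 counts 25, 62 and 6 against 2, 24 and 11. All 11 B cell markers of the list were counted, together 222 to 409 CPM (counts scaled to the library total, on which 1 count was worth 1.93 to 3.20) in WT and 340 to 388 in the DKO libraries. Markers of T cells (8 of 8 counted, 166 to 231 and 171 to 240) were in a like range. So were those of stromal and endothelial cells (5 of 5, 240 to 604 and 219 to 313). Those of plasma cells (7 of 8 listed were in the table) had 57.5 to 163 and 60.2 to 342. Memory B cell markers (7 of 7 counted) had only 16.0 to 92.7 in WT and 56.1 to 148 in DKO libraries. Neutrophil markers had 81.9 to 219 and 119 to 1237, the highest in DKO3, where Cxcr2 had 600 counts. NK cell markers had 12.5 to 86.3 and 83.2 to 180, and erythroid markers 24.0 to 70.3 and 2.25 to 29.1. Cd79a, a signalling partner of the antigen receptor, was nearly absent, with 3, 0 and 0 counts for WT1 to WT3 against 0, 2 and 4 for DKO1 to DKO3. Ighm had at most 5 counts in any library, Igkc, the kappa constant gene, at most 2, and Actb, an abundant gene of nearly all cells, at most 3. The mitochondrial mt-Co1 ranked between 1 and 6 among all symbols in every library. Whether every symbol of the table stands beside its own counts was not tested, and that bears on each value given here.

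V segments made up a very small part of these libraries, and of the 3 segments known for the NP response 1, Iglv1, was prominent, in 1 library. The 117 segments together had 844 of 2609670 counts, or 0.0323%. Counted at least once were 90 of them, and 27, all heavy segments, had no count in any library. A segment had a median of 3 counts over the 6 libraries, against 21 for all symbols. At least 10 counts in all were reached by 25 segments (21.4%), against 63.9% of all symbols. None of the 117 passed the filter on low counts, so none entered the test between the groups.

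Ighv1-72 was all but undetected. WT1 to WT3 and DKO1 had 0 counts of it, DKO2 had 1 and DKO3 had 2. A count of 0 allows up to 9.59, 5.99, 9.38 and 6.75 CPM in those 4 libraries, taking 3 counts as the limit and counting error only. Ighv1-72 did not stand out in any library: 30 of the 114 heavy segments had more counts in DKO2, 17 had more in DKO3, and 11 to 35 had more in the libraries where it was at 0. By summed counts it was 50th of 114 at 3 counts. Its near-identical relative Ighv1-62-3 also had 3 counts, 1 each in WT2, DKO2 and DKO3. Reads that match both could not be told apart, and if reads matching several places were discarded they are in neither count. In all, 19 other genes shared at least 1 window of 50 bases with Ighv1-72. The part of shared sequence in these low counts was not tested. Ighv1-71, described after its values were seen, is an IG_V_gene at chr12:115742205-115742647 with 2.58% of its windows to itself. It had 17 counts in DKO2 and 1 in WT1, while Ighv1-62-2, which holds 302 of the 310 windows of Ighv1-71, had 2 counts in WT1 and 0 elsewhere. Across the 114 heavy segments, which share their libraries and locus, the share of unique windows and the summed count had a Spearman correlation of -0.02 (0.04 with 75-base windows).

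**Figure D1:**
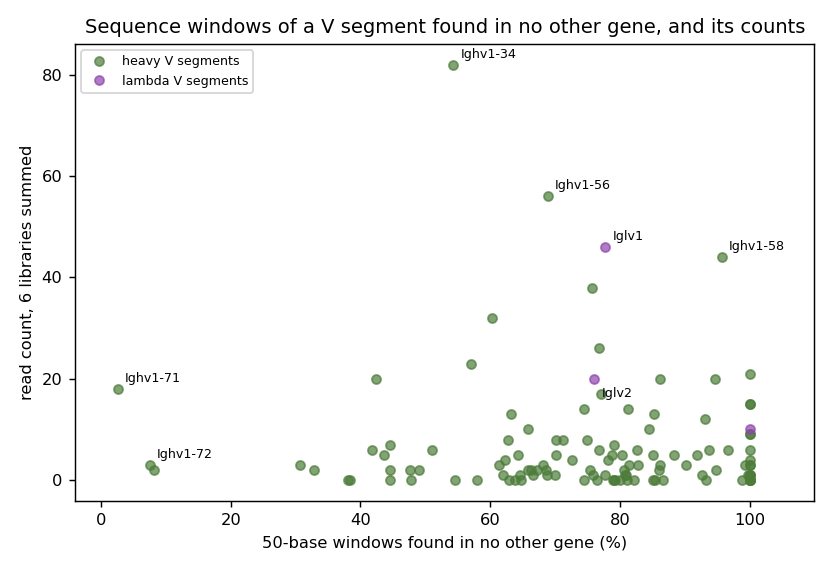
Summed read counts of each V segment over the 6 libraries against the percentage of its 50-base transcript windows that occur in no other annotated gene. Ighv1-72 lies at 7.49% with 3 counts, Ighv1-71 at 2.58% with 18, and the segment with the most counts, Ighv1-34, at 54.3% with 82.

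Iglv1 stood out in 1 library, WT2. WT1, WT2 and WT3 had 1, 37 and 0 counts of it, DKO1, DKO2 and DKO3 had 2, 3 and 3. WT2 thus gave 80.4% of its 46 counts, and the groups overlapped. By start and end, 4 of the 117 members overlap another gene model, and Iglv1 overlaps one on the opposite strand. In WT2 it was second among all 117 segments, behind the heavy segment Ighv1-56 with 52 counts. Iglv3, the remaining lambda segment, was also highest there, with 7 counts against 0 or 1 in every other library. Among the constant genes, the Ighg2c gene of a class-switched heavy chain had 41 of its 68 counts in WT2, and Ighg1 had 14 of 23. The cells behind these counts cannot be identified from a bulk library, in which fewer cells of a type and less RNA per cell cannot be told apart.

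Iglv2 was spread more evenly, and it led the lambda segments in 3 libraries. WT1 to WT3 had 0, 2 and 2 counts of it, DKO1 to DKO3 had 4, 3 and 9. It was the highest lambda segment in WT3, DKO1 and DKO3, and level with Iglv1 at 3 counts in DKO2. Each DKO count was above each WT count, yet the totals are so small that WT3, at 6.25 CPM, lay above DKO2 at 5.80, and the groups overlapped. Iglc2, the constant gene that Iglv2 rearrangements usually use, was at 0 in every WT library, and DKO1 to DKO3 had 9, 3 and 2 counts of it.

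Lambda segments held a minor share of light-chain V counts in every library. The 3 lambda and 104 kappa segments together had 149, 144 and 198 counts (WT1 to WT3) and 142, 192 and 132 counts (DKO1 to DKO3). Lambda accounted for 31.9% of them in WT2 (exact 95% binomial interval 24.4% to 40.2%). In the other WT libraries the share was 0.671% (0.0170% to 3.68%) and 1.52% (0.314% to 4.36%). For DKO1 to DKO3 it was 4.93% (2.00% to 9.89%), 3.65% (1.48% to 7.37%) and 9.09% (4.79% to 15.3%). Such intervals hold for counting error alone, because reads of amplified cDNA are not separate molecules. Counted per segment, lambda exceeded kappa in 4 libraries. In WT2 a lambda segment had a mean of 15.3 counts and a kappa segment 0.942. In DKO1 to DKO3 the lambda means were 2.33, 2.33 and 4 and the kappa means 1.30, 1.78 and 1.15, while in WT1 and WT3 the lambda mean was the lower one (0.333 against 1.42 and 1 against 1.88).

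A different heavy segment had the most counts in each library, and in WT1 and WT2 it held at least 50% of the heavy counts. WT1 was led by Ighv1-34 (chr12:114851190-114851660), with 72 of that library's 144 heavy counts. This segment had 10 counts in DKO2 and 0 in the remaining 4. WT2 was led by Ighv1-56 (chr12:115242802-115243235), with 52 of 95. Outside it Ighv1-56 had 1 count in WT3 and 3 in DKO1. WT3, with 22 heavy counts in all, had at most 6 of any segment (Ighv1-76). DKO1 was led by Ighv1-75 with 16 of 142, DKO2 by Ighv1-66 with 34 of 193, and DKO3 by Ighv1-58 with 42 of 172. The leading segment thus held 50%, 54.7% and 27.3% of the heavy counts of WT1, WT2 and WT3 and 11.3%, 17.6% and 24.4% of those of DKO1, DKO2 and DKO3, and no segment led in more than 1 library. The leaders of the DKO libraries were as local as those of WT1 and WT2: Ighv1-58 had 1 count each in WT1 and WT3 and 0 in the other 3 libraries, and Ighv1-66 had 4 in DKO3 and 0 in the other 4. Ighv1-75 was spread a little wider, with 4 counts in WT1, 2 in DKO2 and 1 in DKO3. Among the 10 heavy and lambda segments with the most counts, Ighv1-24 was counted in 4 libraries, at 17 in WT1 and 7, 1 and 7 in DKO1 to DKO3.

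**Figure D2:**
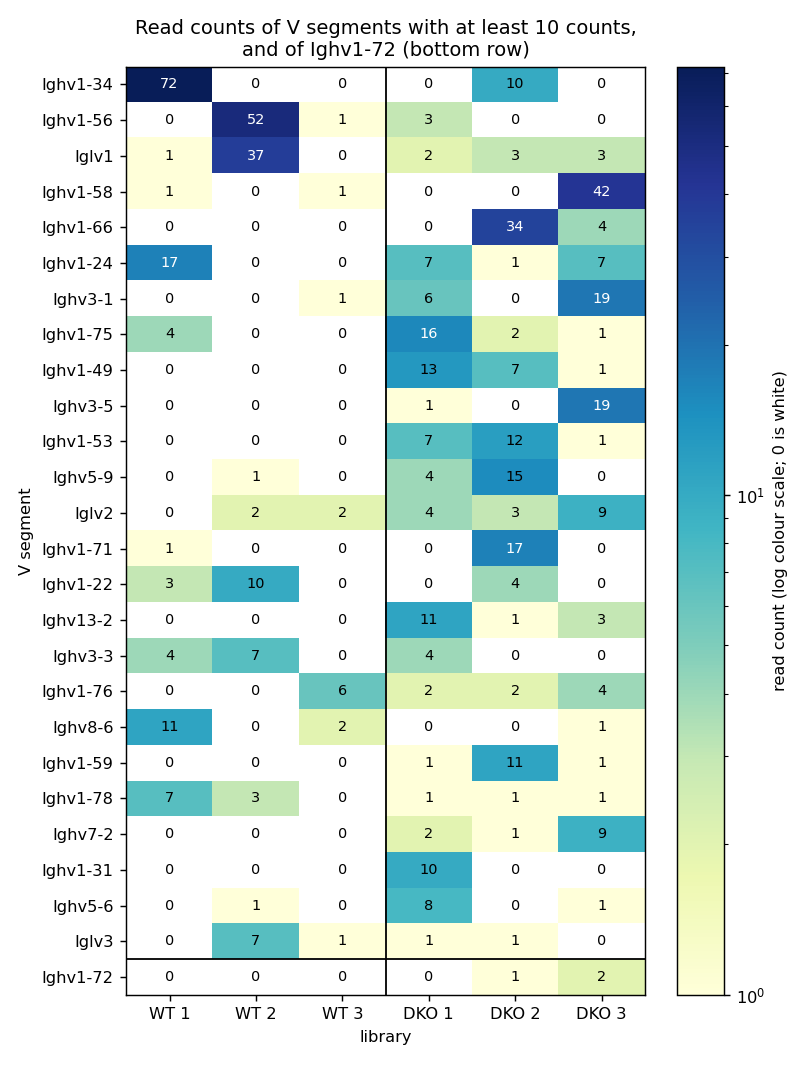
Read counts in each of the 6 libraries for the 25 V segments with at least 10 counts in all, ordered by their sum, and for Ighv1-72 in the bottom row; colour is on a log scale and 0 is white. Most rows have 1 dark cell, such as 72 for Ighv1-34 in WT1 and 42 for Ighv1-58 in DKO3.

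This concentration in single libraries was general. Of the 25 segments with at least 10 counts, 22 (88.0%) had over 50% of them in 1 library. The same held for 94.1% of the 17 T cell receptor V segments, 72.7% of the 22 kappa segments and 62.0% of the 526 olfactory receptors that reached 10 counts. It held for 41.8% of the 22476 symbols of the whole table that reached 10 counts, a mixture that includes far more abundant genes. No V segment was counted in all 6 libraries, against 26.9% of all symbols, and 36 were counted in exactly 1. None was counted in all 3 WT libraries, while 14 were counted in all 3 DKO libraries. DKO libraries also counted more symbols of all kinds, a mean of 68.7% against 51.8% in WT. For kappa segments the mean number counted was 46.7 against 18.3.

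By family, numbered in the symbol after Ighv, the large Ighv1 family (the J558 group, to which Ighv1-72 belongs) held 517 of the 768 heavy counts, or 67.3%, with 47 of its 55 segments counted. WT1 to WT3 had 116, 67 and 15 counts of it, DKO1 to DKO3 had 80, 143 and 96. Set against library totals this was 184 ± 168 CPM in WT and 214 ± 54.0 in DKO libraries (SD, n = 3), and the groups overlapped. Its share of heavy counts lay between 55.8% (DKO3) and 80.6% (WT1). It was 1 of 2 families, with Ighv8, that had counts in every library.

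The next largest families had far fewer counts than Ighv1. Ighv3 (5 segments, all counted) had 4, 7 and 1 counts in the WT group against 17, 0 and 39 in the DKO group, of which Ighv3-1 and Ighv3-5 each gave 19 in DKO3. Ighv5, among the families nearest to the D segments, had 0, 11 and 0 counts against 16, 17 and 6, led by Ighv5-9 with 15 in DKO2. Ighv8 had 11, 3 and 4 counts against 3, 7 and 9, led by Ighv8-6 with 11 in WT1, 2 in WT3 and 1 in DKO3. All 3 families overlapped between the groups. Ighv2 (the Q52 group), a family of 10 segments, had 3, 1 and 0 counts against 0, 5 and 0, and 6 of its segments had none.

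Of the 19 families, lambda included, 3 did not overlap between the groups (15.8%), all higher in the libraries labelled DKO, where 15.6% of all counted symbols were higher in every DKO than in any WT library. These 3 were Ighv13, Ighv7 and Ighv14, all at very low numbers. Ighv13 was at 0 in every WT library and had 11, 1 and 3 counts in DKO1 to DKO3, all from Ighv13-2. Ighv7, also at 0 in the WT group, had 2, 1 and 10, mostly from Ighv7-2, and Ighv14 had 0, 0 and 1 against 2, 7 and 2. Ighv9 had 0, 3 and 0 against 8, 2 and 1 and overlapped. Ighv11, whose segments are known from B-1 cells, went the other way with 5 counts in WT1 and 0 elsewhere. The families Ighv4, Ighv6, Ighv10, Ighv12, Ighv15 and Ighv16 had between 1 and 9 counts each.

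**Figure D3:**
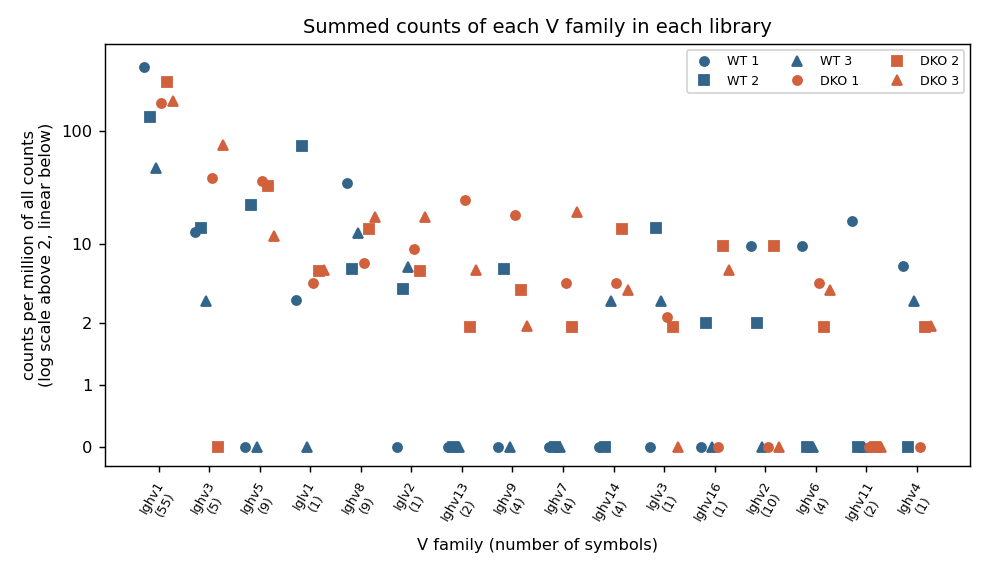
Summed CPM of all counts for each V family with at least 5 counts, 1 point per library (WT blue, DKO orange), on an axis that is logarithmic above 2 and linear below, with the number of symbols in parentheses. Ighv1 lies highest in every library, from 46.9 to 371 CPM, and most other families are at 0 in at least 1 library.

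Along the heavy-chain locus (chr12:113574245-116000461, all 114 segments on the minus strand) counts were scattered. The 38 segments nearest to Ighm, the first constant gene, had 178 counts, the 38 in the middle had 261 and the 38 farthest away had 329, that is 4.68, 6.87 and 8.66 counts per segment. Ighv1-34 alone gave 82 of the middle counts. Of the farthest counts, Ighv1-56 gave 56, Ighv1-58 gave 44 and Ighv1-66 gave 38, each mostly from 1 library, so the order of the 3 parts leans on a few segments. By annotation, 109 of the 117 members are IG_V_genes and 8 are pseudogenes. The pseudogenes had 0 counts over the WT group and 14 over the DKO group, together 4.93 counts per kilobase of exon against 20.7 for the IG_V_genes.

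**Figure D4:**
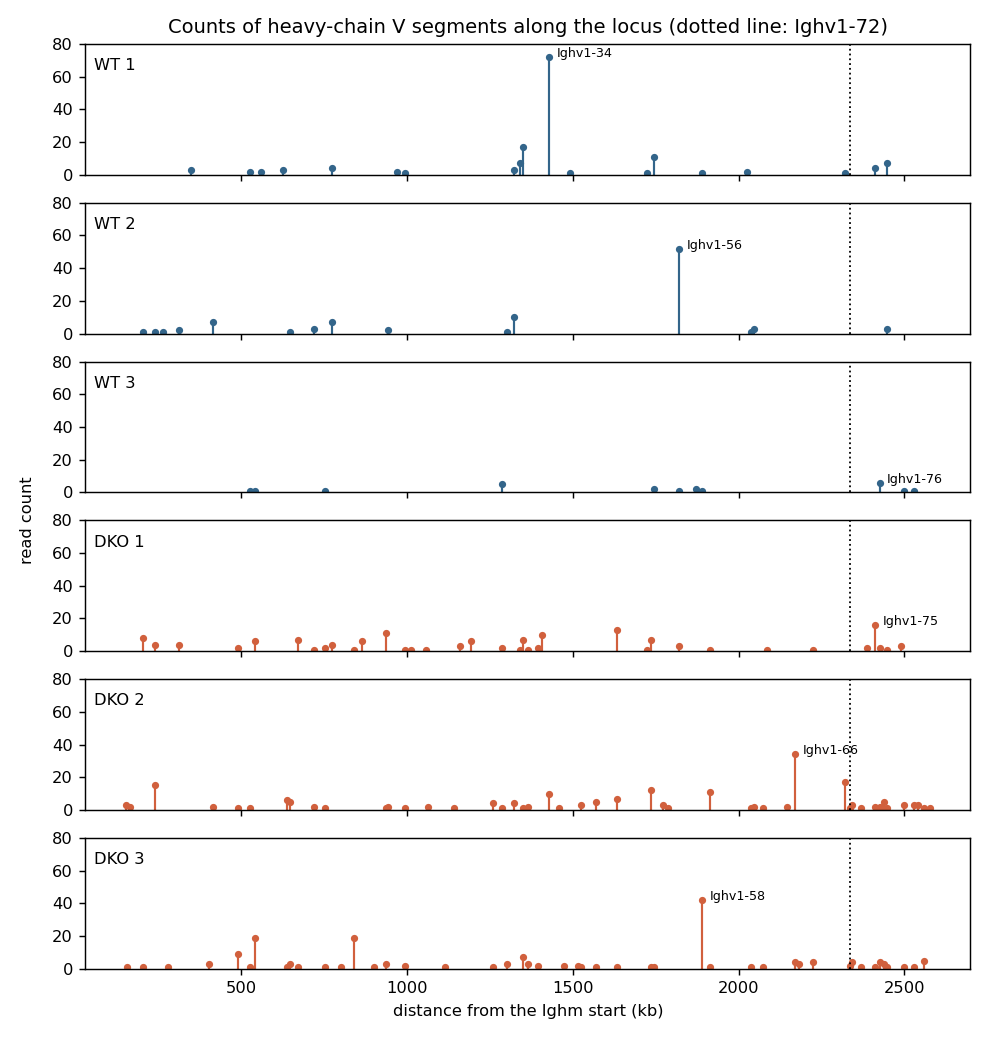
Read counts of the 114 heavy-chain V segments in each library against their distance in kilobases from the start of Ighm; the segment with the most counts is named and a dotted line marks Ighv1-72. Single tall lines stand at Ighv1-34 (72) in WT1, Ighv1-56 (52) in WT2, Ighv1-66 (34) in DKO2 and Ighv1-58 (42) in DKO3, and none at Ighv1-72.

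More heavy segments were counted in the libraries labelled DKO than in the WT libraries, as were more genes of every kind. The number of heavy segments with a count was 19, 15 and 11 (WT1 to WT3) against 35, 47 and 46 (DKO1 to DKO3), and the groups did not overlap. At equal depth, 312908 counts per library, the expected numbers were 19.0, 12.3 and 10.8 against 30.8, 38.2 and 35.3. The number over all symbols was higher too, at 17831, 16773 and 18398 against 22213, 22912 and 22278 at that depth, and olfactory receptors with a count numbered 415, 405 and 478 against 691, 773 and 704 of 1248. Markers of macrophages and monocytes (6 of 7 listed were in the table, all counted) summed to 38.3 to 314 CPM in WT and 385 to 791 in DKO libraries. Lyz2 (4, 0 and 10 counts against 35, 92 and 206) and Itgam (1, 9 and 21 against 81, 181 and 147) were higher in the DKO libraries, whereas Csf1r and Fcgr1 had log2 fold changes of -0.89 and -1.49, and 0 of the 4 tested passed. The part of these in the number of segments was not tested. Of the 90 counted segments, 49 had counts in DKO libraries alone, 8 in WT libraries alone, and 33 were counted in both groups. The shares were 54.4% and 8.89% of the counted V segments, 28.7% and 6.35% of the counted olfactory receptors and 16.5% and 4.70% of all counted symbols.

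The summed level of heavy V segments did not separate the groups. The 114 segments had 144, 95 and 22 counts (WT1 to WT3) and 142, 193 and 172 counts (DKO1 to DKO3). The highest share of a library's counts, 0.0460% in WT1 (exact 95% interval 0.0388% to 0.0542%), and the lowest, 0.00688% in WT3 (0.00431% to 0.0104%), were both in the WT group. Means were 240 ± 200 CPM in WT and 342 ± 27.8 in DKO libraries (SD, n = 3). With TMM scaling, which sets most genes level between libraries, the order turned to 412 ± 321 against 337 ± 17.3, so no direction can be given. The difference, DKO minus WT, was 103 CPM, and it was 213 without WT1 and 17.3 without WT3. Lambda segments summed to 1, 46 and 3 counts in the WT group and to 7, 7 and 12 in the DKO group, or 34.8 ± 49.5 against 17.5 ± 5.12 CPM. Without WT2 the WT mean was 6.29, and the difference, DKO minus WT, went from -17.3 to 11.2 CPM.

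No V segment passed a test between the groups. In edgeR's quasi-likelihood test over 8895 genes, 0 genes passed an adjusted p of 0.05 (0% of the genes tested), 0 of which could be V segments, since none passed the filter. Without adjustment, 488 genes were higher and 586 lower at p under 0.05, a split that went to 1090 and 220 with library totals in place of TMM and to 374 and 221 with the replicate number as a block. DESeq2 called 601 of the same 8895 and limma-voom called 0. Without the filter, edgeR tested 90 V segments among 31134 symbols and called 0 of them, where it called 0.418% of all symbols. At an unadjusted p under 0.05, 6 of the 90 were higher and 3 lower, against 1794 and 2207 of the 31134. The smallest adjusted p was 0.196, for Ighv1-56, which rests on WT2. DESeq2 without the filter called 0 V segments, where it called 0.816% of all symbols. It can leave symbols with low means without an adjusted p, and any such symbols stay in these totals although they could not be called. At an unadjusted p under 0.05 it had 0 segments higher and 2 lower, against 996 and 1778 of the 31134 symbols. Set out by sample, 6 of the 90 counted segments were higher in all 3 DKO libraries than in any WT library (6.67%). Of all counted symbols 15.6% did the same, but they had more counts. Only a symbol counted in all 3 DKO libraries can do so, and 14 of the 90 segments were. Lower in all 3 were 0 segments, against 1.72% of all counted symbols, an outcome fixed because 0 segments were counted in all 3 WT libraries. The shares therefore do not show that V segments differ less between the groups. These 6 (Ighv1-26, Ighv1-49, Ighv1-53, Ighv1-59, Ighv7-2 and Ighv13-2) each had 0 counts in all WT libraries and at most 13 in any DKO library. Ighv1-49 had 13, 7 and 1 and Ighv1-53, another J558 segment, 7, 12 and 1.

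Per kilobase, heavy V segments had higher levels in 5 of 6 libraries than T cell receptor V segments, and WT3 had lower ones, whichever length was taken. Taking the exonic length of the gene models, the heavy segments had 11.0, 4.55 and 1.65 CPM per kilobase (WT1 to WT3) and 7.66, 8.95 and 8.01 (DKO1 to DKO3). Kappa segments had 5.18 to 16.1 and T cell receptor V segments 1.38 to 6.91. Olfactory receptors, which are expressed by sensory neurons of the nose, had 1.59 to 3.38, and vomeronasal receptors, also of the nose, 1.70 to 2.26, both below the heavy segments in 5 of 6 libraries and above them in WT3. These gaps depended on the length. Per kilobase of coding sequence vomeronasal receptors had 5.03 to 8.03 and olfactory receptors had 5.22 to 11.2 against 1.84 to 12.3 for heavy segments, with both receptor families higher than heavy segments in WT2 and WT3. All symbols with a gene model together had 8.99 to 9.13 per exonic kilobase, so heavy V segments did not exceed the average of the table except in WT1. Lambda segments reached 80.8 in WT2 and had 2.81 to 20.5 in the other 5 libraries.

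**Figure D5:**
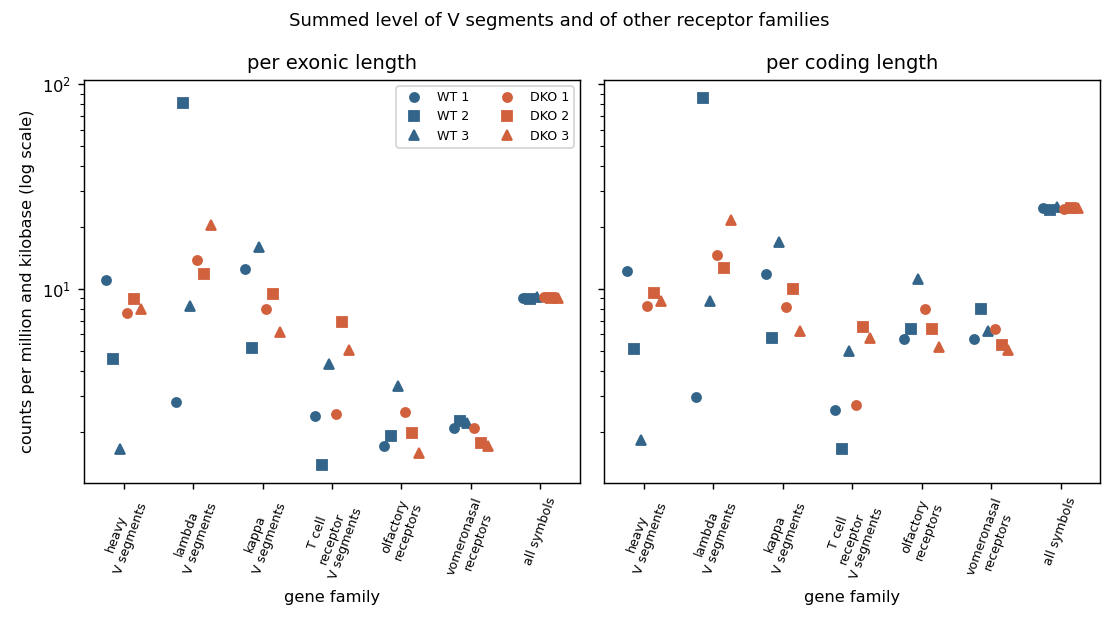
CPM per kilobase of the summed V segments, of other receptor families and of all symbols, 1 point per library, on log axes, with exonic length on the left and coding length on the right (genes with such a length only). Heavy V segments span 1.65 to 11.0 per exonic kilobase and overlap the olfactory receptors at 1.59 to 3.38, and the lambda point at 80.8 is WT2.

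Other parts of a rearranged receptor gene also had few counts, over sets of unlike length. The 4 heavy J segments had 0 counts in all libraries, but cover only 0.255 kb of exon against 41.7 kb for heavy V segments. The 20 D segments (0.347 kb) had 7 counts in DKO2 and 1 in DKO3. The 5 kappa J segments (0.199 kb) had 1 in DKO2 and 3 in DKO3. Per exonic kilobase this was 23.1 counts for D and 20.1 for kappa J segments, against 18.4 for heavy V segments. Of the 13 constant genes listed, 9 had a matching symbol, and together they had 6, 58 and 15 counts (WT1 to WT3) and 26, 36 and 47 (DKO1 to DKO3), fewer than the V segments in every library. The surrogate light chain and B cell receptor genes (6 of 7 matched) had 11, 9 and 13 against 3, 16 and 10.

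Genes that rearrange and mutate V segments were better counted. All 15 of the list had counts, 9 entered the edgeR test, and 0 passed in either direction; 6 had log2 fold changes above 0 and 3 below, with a median of 0.92, where the median of all tested genes was -0.17. With library totals in place of TMM that median of all genes moved to 0.62. Rag1, a subunit of the recombinase that joins the segments in precursor cells, had 1, 12 and 5 counts in WT1 to WT3 against 39, 18 and 128 in DKO1 to DKO3 (log2 fold change 2.21, edgeR adjusted p = 0.432). Polh, a polymerase that copies past lesions during hypermutation, had 2, 1 and 3 against 31, 35 and 31 (log2 fold change 2.69, edgeR adjusted p = 0.390). For Rag1 and Polh every DKO count was above every WT count. By CPM, 15.6% of all counted symbols were likewise higher in every DKO library than in any WT library. Xrcc6, which encodes the end-joining protein Ku70, had 3, 5 and 10 counts against 53, 200 and 215 (log2 fold change 3.36, edgeR adjusted p = 0.390). Xrcc4, which acts in the same end-joining pathway, was at 0 in every WT library and had 8, 8 and 19 counts in DKO1 to DKO3, too few for the test. The genes named here were all higher in the DKO libraries, whereas 3 of the 9 tested had log2 fold changes below 0. An end-joining gene was among those below 0, so the genes of that pathway did not all go the same way.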

How the data were processed

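The values are whole-number counts by gene symbol, raw as the authors deposited them, in 6 columns matched to the samples by name (0 columns unmatched). Without giving roles, the submitters' processing notes list mm10 as the build and STAR, CASAVA, edgeR and R 3.6.3 as tools. The counting tool, strand setting and annotation were not given in the sources used here, which leaves counts of near-identical segments and antisense pairs uncertain. Per the labels' protocols, libraries were poly(A)-enriched amplified cDNA from about 1000 cells. Counts of DKO and WT libraries were compared with edgeR 4.0.16 (R 4.3.3, limma 3.58.1): filterByExpr (minimum count 10), TMM, robust quasi-likelihood F test, no covariate, Benjamini-Hochberg over 8895 genes. CPM use all counts of a library unless TMM is named. Sums over segments were not tested. Gene models and sequences are GENCODE mouse release 21 (mm10); all 117 members and 31032 of 35186 symbols (88.2%) matched. Windows were searched in all annotated transcripts, both strands, using each segment's longest transcript. Python 3.11.15 and scipy 1.17.1 gave exact binomial intervals and expected numbers after thinning. Named segments were Ighv1-72, Iglv1, Iglv2 and Iglv3, the 10 with the most counts and the leaders of families with at least 10 counts; others were chosen after their values were seen, and Bnip3l and Bnip3 as the targeted genes. Members and lists were chosen with earlier results of these data known. One gene of the rearrangement and mutation list is not reported here by name. The edgeR script was tested on simulated data: with a low spread it found the changed genes, and with the spread of these libraries it called none of them, even at large changes, so a lack of calls says nothing about whether genes differ. Alternatives were other scalings (size factors of DESeq2 1.42.0, TMMwsp, library totals), other filters, DESeq2, limma-voom, the replicate number as a block, and each library left out; 75-base windows, coding length, DESeq2 without a filter, and sums without each library's leading segment or Iglv1 were added after the data were seen.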

Additional observations from a re-analysis of the deposited data

How the results depend on the processing

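No V segment was called under any scaling, filter, test, block or left-out library that was run, but only the settings without a filter or with at least 1 count in 2 libraries tested any (90 and 54 segments). For DESeq2 the 90 include any segments that it left without an adjusted p. Over all genes the count past an adjusted p of 0.05 went from 0 to 130 in edgeR without the filter, 601 in DESeq2 and 254 in DESeq2 without the filter, the last chosen after seeing the data; the cause was not tested. Leaving out 1 library gave 0 calls throughout, which is no sign of stability, since the test had little power at this spread. With the replicate number as a block the counts were 0 for all genes and 0 for V segments. After subtracting each gene's group mean from log TMM-scaled CPM, same-numbered WT and DKO libraries correlated at 0.02 to 0.04, too little to pair them. On this measure each library still correlated best, among those of the other group, with its own number. The difference in summed heavy V level, DKO minus WT, went from 103 to -75.1 CPM with TMM scaling, and lay between 17.3 and 213 with 1 library left out (without WT3 and WT1). For lambda it lay between -33.1 and 11.2 with 1 library left out, above 0 in those runs only without WT2. Without Iglv1 it was 3.04. The difference in heavy segments counted, 27.7 per library, was 20.7 at equal depth and 11.7 at a minimum of 3 counts (25.5 to 31.5 with 1 library left out). Ighv1-72 ranked 50th by counts and 58th per kilobase. The log2 fold changes of named segments were not compared, since the filter on low counts removed them. One count was worth 1.93 to 3.20 CPM, which limits what single segments can show.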
